A study of Homo sapiens with 12 samples.

Results

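The difference described here is that between U937 cells carrying an EVI1 expression vector and U937 cells carrying the empty vector, with both kept in all-trans retinoic acid (ATRA). It was read on 6 of the series' 12 arrays, chosen by their labels alone. The vector ATRA group and the EVI1 ATRA group held 3 arrays each, and both received 1 µM ATRA for 24 h. The other 6 arrays, of the same cells given the solvent DMSO in place of ATRA, enter through the shared estimate of spread and as a side by side value. Replicates are biological, 3 of each kind, per the series' design. The labels do not say whether the transduced cells were pools or clones, so an effect of EVI1 and any other difference between the transduced populations cannot be told apart.

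U937 is a human leukaemia line with monocytic features. EVI1, a DNA-binding zinc finger protein, is made from the MECOM gene, and its overexpression marks a group of myeloid leukaemias with poor outcome. ATRA, a vitamin A derivative, binds retinoic acid receptors, which pair with retinoid X receptors on DNA and turn from repression to activation of their targets. In myeloid leukaemia cells this can slow division and drive maturation. Arrays of whole cultures cannot tell fewer cells of a type from less RNA per cell.

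The EVI1 label could not be checked by MECOM. Its 5 probe sets (groups of short probes, each giving 1 level for a transcript) read between 2.61 and 3.60 on the log2 scale on all 12 arrays, under the lower quartile of every array (3.83 to 3.91). The largest difference between EVI1 and vector cells under ATRA was 0.40 ± 0.15 (SE), with an adjusted p of 0.211 without the pairing of replicate numbers and 0.0705 with it. What the vector carries and what those probe sets can read is not given in the sources used here. The cell identity was checked on 15 measured myeloid markers, all of them at a log2 level of 5 or more on at least 1 of the 6 arrays. Their mean ran from 9.51 to 9.60 in vector ATRA arrays and from 9.35 to 9.77 in EVI1 ATRA arrays. The lists of erythroid, megakaryocyte, T and NK, B cell, epithelial, and fibroblast and endothelial markers had means between 4.88 and 5.66 on these arrays. CD79B rose by 0.77 ± 0.13 and MUC1 by 0.47 ± 0.10, and no other tested gene of those 6 lists passed the test. With the replicate number as a block, NKG7 of the T and NK list (0.55, adjusted p = 0.0026) and PAX5 of the B cell list (0.54, adjusted p = 0.042) were higher too, and KLF1 of the erythroid list (-0.71, adjusted p = 0.0199) and BANK1 of the B cell list (-0.39, adjusted p = 0.0324) were lower. The part of these cell types in the results was not tested. CD79B kept its call without any single array, whereas MUC1 lost it without vector ATRA number 1 or 3 or EVI1 ATRA number 2 or 3 (adjusted p up to 0.0812). Another probe set of CD79B differed by -0.07.

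Promoters of 3 genes are shown for the families they stand for in the results. EGR1 is the immediate early gene among the largest rises whose promoter was in the sequence table. P2RY13 is among the largest rises, and MS4A3 fell and belongs to a list of genes tied to EVI1 by other studies. The sequences are RefSeq's for GRCh38.p14, each the 250 bases before the gene's start, on the gene's strand from 5′ to 3′. Capitals mark CArG boxes in EGR1, the site bound by serum response factor, and AGATAA on either strand in the others, a core shared by sites of GATA factors and of the first zinc finger domain of EVI1. The regions are chr5:138465229-138465478 on the plus strand, chr3:151329550-151329799 on the minus strand and chr11:60056415-60056664 on the plus strand.
EGR1: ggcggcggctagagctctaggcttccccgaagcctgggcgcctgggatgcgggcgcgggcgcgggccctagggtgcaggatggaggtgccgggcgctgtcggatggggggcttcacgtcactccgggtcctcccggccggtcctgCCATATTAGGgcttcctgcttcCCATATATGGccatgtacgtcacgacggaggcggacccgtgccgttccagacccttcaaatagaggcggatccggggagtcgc
P2RY13: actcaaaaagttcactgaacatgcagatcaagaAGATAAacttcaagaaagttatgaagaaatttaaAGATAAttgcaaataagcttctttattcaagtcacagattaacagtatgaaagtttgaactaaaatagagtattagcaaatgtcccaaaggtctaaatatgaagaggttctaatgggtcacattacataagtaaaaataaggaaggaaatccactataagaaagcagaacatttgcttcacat
MS4A3: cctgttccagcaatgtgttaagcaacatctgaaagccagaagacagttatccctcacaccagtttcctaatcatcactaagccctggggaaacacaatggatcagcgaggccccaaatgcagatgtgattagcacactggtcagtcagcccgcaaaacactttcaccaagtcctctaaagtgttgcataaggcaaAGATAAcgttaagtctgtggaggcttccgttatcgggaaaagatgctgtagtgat
The matches begin 105 and 83 bases before the start of EGR1, 217 and 183 before that of P2RY13, and 55 before that of MS4A3. The genes were chosen with their values known. AGATAA on either strand was found in the 300-base promoters of 20 of 397 genes that were higher in EVI1 cells (5.0%), 13 of 239 that were lower (5.4%) and 620 of all 11234 tested genes with a promoter in the table (5.5%). AGGTCA on either strand, the repeat unit in sites of retinoic acid receptor dimers, was found in 9.8%, 9.2% and 10.4% of the same sets. The CArG box was held by 125 of the 11234 promoters (1.11%) and by 1 of 19 promoters of immediate early genes, that of EGR1. Each match describes the letters in this window only.

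The genes that rose in EVI1 cells under ATRA include the transcription factor genes EGR3 and EGR1, the class II gene HLA-DRA and the inhibitory receptor gene CD300A. Those that fell include THBD (thrombomodulin), LTBP1, KITLG and the replication gene GINS1, and a few transcripts that were close to the array's background in EVI1 cells. Of 14080 genes tested with limma, 790 (5.61%) passed an adjusted p of 0.05, and such genes are here termed called. Among them 462 (3.28% of the genes tested) were higher and 328 (2.33%) were lower in EVI1 cells. They include 6 of 25 immediate early genes, 4 of 12 class II genes and 3 of 28 leukocyte receptors, all higher, and 5 of 30 genes of DNA replication and 4 of 24 of ribosome production, all lower. A change of at least 2-fold was reached by 110 of the higher and 60 of the lower genes. The median difference over all genes was -0.01.

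The count depended on how replicate numbers were treated and on single arrays. With the replicate number as a block, 3559 genes were called (25.3%), 1824 higher (13%) and 1735 lower (12.3%), and all 790 genes kept their call. The block does not alter the differences themselves, so no direction could change. List counts below are to be read against the shares of all genes in the same fit. The same-number differences of the 790 genes had the same sign at all 3 numbers, and in 789 of them the 3 EVI1 arrays did not overlap the 3 vector arrays, against 2963 of 14080 genes (21.0%). A lack of overlap therefore sets no called gene apart from the others. The differences were unequal in size. Genes called higher had a median difference of 0.54 at number 1, 0.68 at number 2 and 0.90 at number 3, and genes called lower one of -0.58, -0.67 and -0.79. The pair numbered 3 held the largest difference in 333 of the 462 higher and 201 of the 328 lower genes. Fits that left out 1 array, here and below, were made without the block, so they do not use the pairing by number. Without EVI1 ATRA number 1 the count rose to 1962. It was 402 without vector ATRA number 1, 380 without vector ATRA number 2 and 343 without EVI1 ATRA number 2. Without vector ATRA number 3 it was 287, and without EVI1 ATRA number 3 it was 263. No gene of the 790 changed direction in these fits, which the lack of overlap fixed in advance for 789 of them. Of the 198 called genes taken up by the naming rule, 86 kept their call without any single array and 112 lost it without at least 1.

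**Figure D1:**
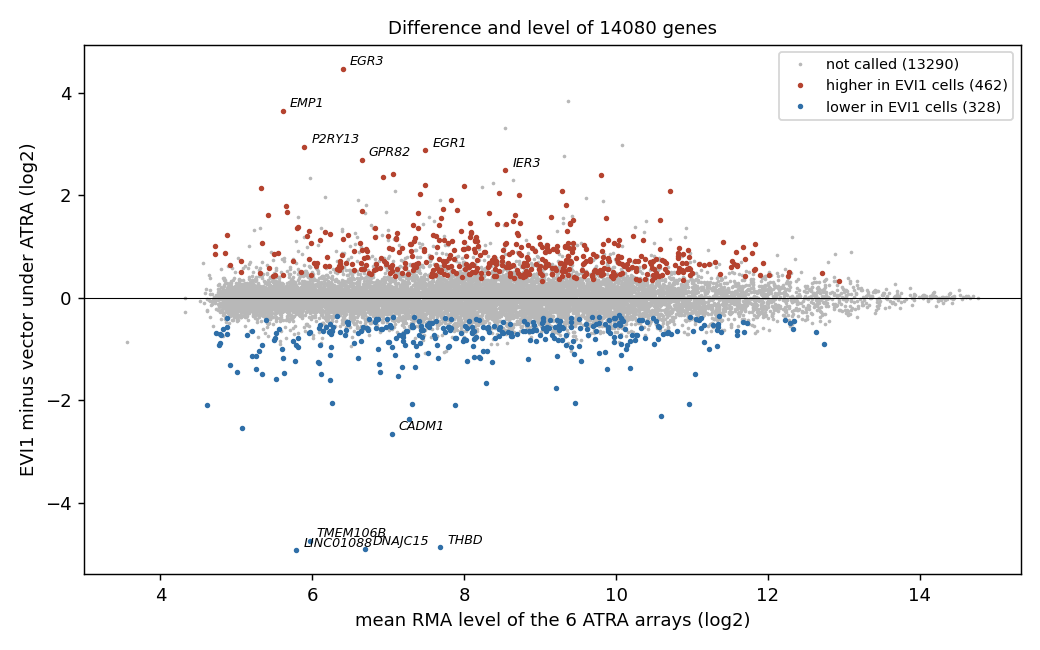
Each point is a gene, with its mean RMA level on the 6 ATRA arrays (log2) on the horizontal axis and the EVI1 minus vector difference under ATRA (log2) on the vertical axis. The 462 genes called higher are red, the 328 called lower are blue and the others grey. LINC01088, DNAJC15, THBD and TMEM106B lie apart at the bottom with differences of -4.92 to -4.74, and EGR3 has the largest rise at 4.47.

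The largest falls appeared at every replicate number. THBD encodes thrombomodulin, a thrombin receptor on endothelial cells and some monocytes that turns clotting off through protein C. Its level was 9.66, 10.45 and 10.24 on the vector ATRA arrays and 5.45, 5.13 and 5.17 on the EVI1 ATRA arrays. The groups were far apart and the EVI1 arrays lay within a narrow band. The difference was -4.87 ± 0.43 (adjusted p = 0.000119), a level 29.2-fold higher in vector cells. Under DMSO the difference was -3.44 ± 0.43, with vector arrays at 6.05, 6.55 and 8.27 and EVI1 arrays at 3.51, 3.34 and 3.71. These EVI1 DMSO levels all lay under the lower quartile of their array (3.84 to 3.88). The size of the fall under DMSO is therefore limited by the background.

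DNAJC15, a mitochondrial co-chaperone of the DNAJ family, read 8.79, 9.41 and 9.24 in vector ATRA arrays and 4.04, 4.34 and 4.37 in EVI1 ATRA arrays. Its difference of -4.90 ± 0.18 had the smallest adjusted p of the comparison (8.1e-08), and was -5.05 under DMSO. LINC01088, a long non-coding RNA, was at 7.67, 8.22 and 8.86 in vector cells and at 3.54, 3.40 and 3.04 in EVI1 cells (-4.92 ± 0.33, adjusted p = 1.44e-05). TMEM106B, which encodes a lysosomal membrane protein, was at 7.71, 8.62 and 8.67 and at 3.43, 4.15 and 3.21 (-4.74 ± 0.34, adjusted p = 3.22e-05). All EVI1 arrays of LINC01088, and 2 of 3 of TMEM106B, lay under the lower quartile of their array, so the size of these falls is limited by the background.

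CADM1, a cell adhesion molecule of the immunoglobulin family, read 8.37, 8.61 and 8.13 in vector ATRA arrays and 5.76, 5.70 and 5.69 in EVI1 ATRA arrays (-2.65 ± 0.21, adjusted p = 6.16e-05). LTBP1, which holds latent TGF-beta in the matrix, read 8.92, 9.07 and 8.80 and then 6.54, 6.71 and 7.26 (-2.09 ± 0.16, adjusted p = 5.7e-05). KITLG, the ligand of the KIT receptor, read 5.45, 5.68 and 5.83 and then 3.86, 3.46 and 3.37 (-2.09 ± 0.17, adjusted p = 6.76e-05). None of these groups of arrays overlapped, as the naming rule for the largest falls required. NEO1, a receptor of netrins and repulsive guidance molecules, fell by 2.36, and CLGN, an endoplasmic reticulum chaperone, by 2.55. STAR, which moves cholesterol into mitochondria, fell by 2.31 from a high level of 11.89, 11.75 and 11.58 to 9.68, 9.61 and 9.0. The 5 smallest adjusted p of the falls also took in ASH2L, a subunit of histone H3 lysine 4 methyltransferases (-2.07 ± 0.10, adjusted p = 9.13e-07), and RTL8C (-2.07 ± 0.12, adjusted p = 4.98e-06). All 12 of these genes kept their call without any single array, at adjusted p of 0.00276 or less.

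**Figure D2:**
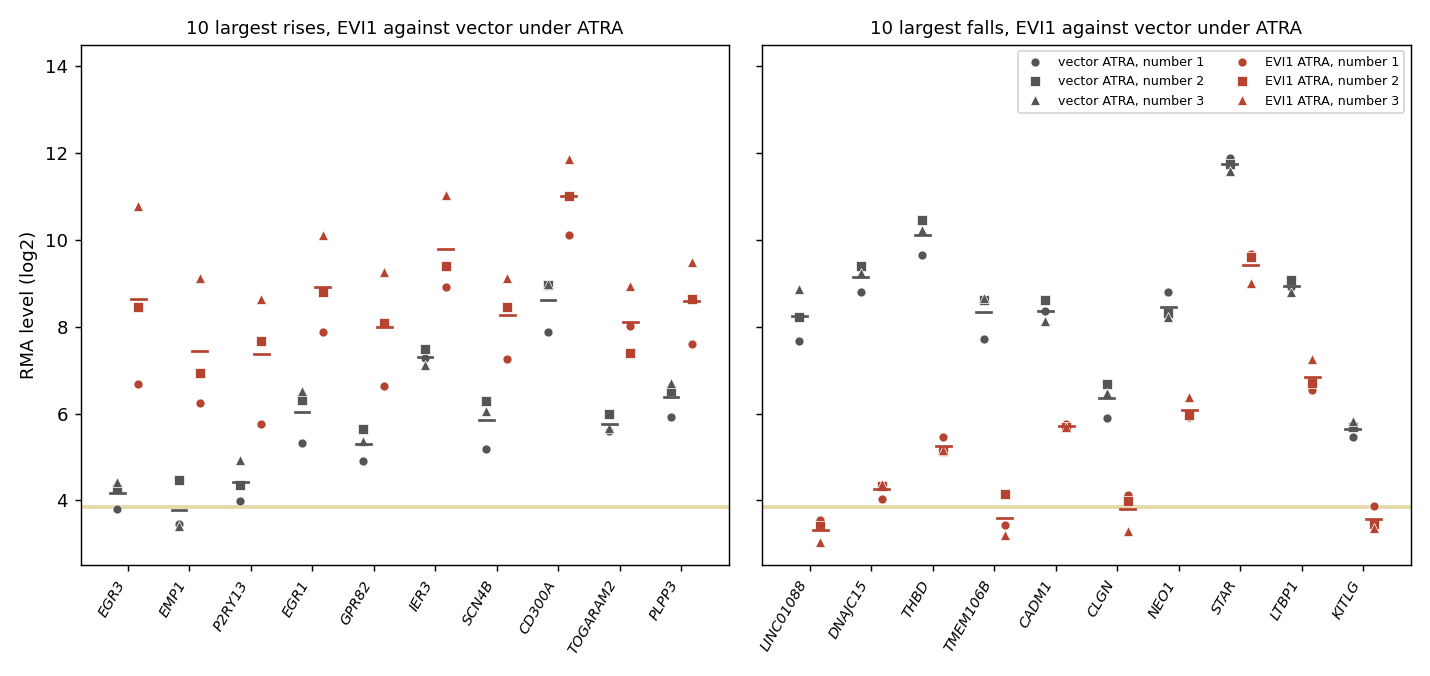
RMA level (log2) of the 10 genes with the largest rises (left) and the 10 with the largest falls (right) on each vector ATRA array (grey) and EVI1 ATRA array (red). Symbols give the replicate number, short lines the group mean, and the sand-coloured band the range of the lower quartiles of the 6 arrays. In the rises the EVI1 arrays spread widely, with number 3 highest in all 10 genes, while the falls vary less.

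The largest rises were more variable. EGR3, a zinc finger transcription factor of the early growth response family, read 3.81, 4.26 and 4.42 in vector ATRA arrays and 6.67, 8.45 and 10.79 in EVI1 ATRA arrays. By the naming rule all EVI1 arrays stood above all vector arrays, yet they spread over more than 4 log2 units. The difference was 4.47 ± 1.00 (adjusted p = 0.0241), and the level was 22.2-fold higher in EVI1 cells. EGR3 is read by 1 probe set, and its vector arrays lay near the background. Under DMSO, EVI1 number 3 read 7.45 and the other 5 arrays 3.69 to 3.88.

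EMP1, a membrane protein linked to EVI1 in earlier work, read 3.46, 4.48 and 3.41 in vector ATRA arrays and 6.25, 6.93 and 9.13 in EVI1 ATRA arrays (3.65 ± 0.66, adjusted p = 0.0101). P2RY13, a receptor for ADP, read 3.98, 4.35 and 4.93 and then 5.77, 7.68 and 8.65 (2.95 ± 0.60, adjusted p = 0.0164). EVI1 number 3 was again the highest array of both genes, and by the same rule no EVI1 array fell into the range of the vector arrays. GPR82, an orphan receptor, rose by 2.69, SCN4B, a beta subunit of sodium channels, by 2.43, TOGARAM2 by 2.36 and PLPP3, a phospholipid phosphatase, by 2.20. CD300A, an inhibitory receptor of myeloid cells, read 7.87, 8.97 and 8.99 and then 10.12, 11.02 and 11.87 (2.39 ± 0.57, adjusted p = 0.0311), although of its 3 probe sets 1 had a difference of -0.01.

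In the fit without the block, the calls of these rises depended on single arrays more than those of the falls. With the block and all 12 arrays, the adjusted p was 0.0025 for EGR3, 0.0059 for GPR82, 0.0024 for IER3 and 0.00051 for CD300A. It was 0.00075 for P2RY13, 0.0012 for SCN4B and 0.000118 for EGR1. EMP1, TOGARAM2 and PLPP3 kept their call without any single array. EGR3, GPR82, IER3 and CD300A lost it without any of the 5 arrays other than EVI1 ATRA number 1, with adjusted p of at most 0.0951, 0.206, 0.159 and 0.141. Over the 6 fits that left out 1 array, the difference of EGR3 ran from 3.40 to 5.46. P2RY13 lost its call without vector ATRA number 1 or 2 or EVI1 ATRA number 2 or 3 (adjusted p up to 0.0624), SCN4B without vector ATRA number 1 or EVI1 ATRA number 2 or 3 (up to 0.0599), and EGR1 without vector ATRA number 1 or EVI1 ATRA number 3 (up to 0.0607).

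The rises with the smallest adjusted p were smaller and tighter. GPR18, a G protein-coupled receptor of leukocytes, read 7.83, 7.89 and 7.94 in vector ATRA arrays and 9.20, 9.28 and 9.70 in EVI1 ATRA arrays (1.51 ± 0.15, adjusted p = 0.000373). RALGAPA2, a subunit of a complex that inactivates Ral GTPases, rose by 1.22 ± 0.13, TMEM266 by 1.31 ± 0.14, FAM222A by 1.90 ± 0.22 and BRI3 by 1.05 ± 0.12. These 5 genes kept their call without any single array.

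Immediate early genes encode regulators that are transcribed within minutes of a stimulus without new protein synthesis. Of 25 tested, 6 were higher and 0 lower, and their median difference was 0.50 against -0.01 over all genes. With the replicate block 13 were higher. EGR1, a zinc finger activator, read 5.31, 6.31 and 6.51 in vector ATRA arrays and 7.87, 8.80 and 10.11 in EVI1 ATRA arrays (2.88 ± 0.58, adjusted p = 0.0153). IER3, a regulator of cell survival, read 7.27, 7.49 and 7.13 and then 8.91, 9.41 and 11.03 (2.49 ± 0.62, adjusted p = 0.0382). In both genes the 3 EVI1 arrays lay above the 3 vector arrays, as the naming rule for the largest rises required. MAFF, a small MAF protein, rose by 2.04, ZFP36, which promotes decay of AU-rich messenger RNAs, by 1.11, and JUND, a subunit of AP-1, by 0.82. ZFP36 and JUND kept their call without any single array. MAFF lost it without any of the 5 arrays other than EVI1 ATRA number 1 (adjusted p up to 0.13). With the block and all arrays, MAFF had an adjusted p of 0.00066. Without EVI1 ATRA number 1, 12 of the list were called, and without 1 of the other 5 arrays 2 or 3.

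Of 30 tested genes of DNA replication and entry into S phase, 5 were lower and 0 higher in EVI1 cells. All 30 had a negative difference, with a median of -0.55. With the replicate block 23 were lower. GINS1, a subunit of the GINS complex of the replicative helicase, read 10.89, 10.79 and 10.91 in vector ATRA arrays and 9.93, 9.31 and 9.26 in EVI1 ATRA arrays (-1.36 ± 0.15, adjusted p = 0.000716). CHAF1B, a subunit of the chromatin assembly factor CAF-1, fell by 0.95, MCM4, a subunit of the helicase, by 0.77, UNG, a uracil glycosylase, by 0.73, and PCNA, the sliding clamp of DNA polymerases, by 0.66. Their EVI1 arrays did not overlap their vector arrays, which held for 789 of the 790 called genes. GINS1 and CHAF1B kept their call without any single array. MCM4 and UNG lost it without any of the 5 arrays other than EVI1 ATRA number 1 (adjusted p up to 0.133 and 0.106), and PCNA without vector ATRA number 2 or 3 or EVI1 ATRA number 2 or 3 (up to 0.0796). The count was 29 of 30 without EVI1 ATRA number 1 and 2 or 3 without 1 of the other 5 arrays. Under DMSO the median of the list was -0.03 and 1 member was lower.

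Of 26 genes of mitosis, 25 had a negative difference, with a median of -0.40, and 0 were called. With the replicate block 16 were lower, and without EVI1 ATRA number 1 18 were. MKI67, the proliferation marker Ki-67, had a difference of -0.80 ± 0.35 (adjusted p = 0.217, and 0.011 with the block), and CDC25B, a phosphatase that activates CDK1, one of -0.66 ± 0.19 (adjusted p = 0.0717, and 0.000824 with the block).

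Of 24 tested genes of ribosome production and MYC targets, 4 were lower and 0 higher, 23 had a negative difference and the median was -0.42. With the replicate block 20 were lower. POLR3G, a subunit of RNA polymerase III, fell by 1.12, CAD, which starts pyrimidine synthesis, by 0.83, RRS1, a ribosome assembly factor, by 0.80, and POLR1B, a subunit of RNA polymerase I, by 0.61. Each lost its call without at least 4 of the 5 arrays other than EVI1 ATRA number 1 (adjusted p up to 0.0915, 0.122, 0.0882 and 0.182). The count was 16 without EVI1 ATRA number 1 and 0 or 1 without 1 of the other 5 arrays. In the MYC network, 1 of 11 tested genes was higher and 1 lower, and with the block 4 and 1 were. MYC, a driver of growth and ribosome production, read 11.67, 11.47 and 11.61 in vector ATRA arrays and 11.13, 10.82 and 10.22 in EVI1 ATRA arrays (-0.86 ± 0.18, adjusted p = 0.0203). Its call was lost without vector ATRA number 1 or 3 or EVI1 ATRA number 2 (adjusted p up to 0.074). MXD1, a MYC antagonist that competes for MAX, rose by 0.76 ± 0.12.

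Among CDK inhibitors, G1 cyclins and growth arrest genes, 3 of 25 tested were higher and 1 was lower, with a median of 0.14. With the replicate block 9 were higher and 4 lower, where 13% and 12.3% of all genes were. CDKN1A, the CDK inhibitor p21, read 8.90, 9.20 and 9.15 in vector ATRA arrays and 10.31, 10.70 and 10.91 in EVI1 ATRA arrays (1.56 ± 0.24, adjusted p = 0.00447). Every EVI1 array was above every vector array, and the call held without any single array. GADD45A, a stress-induced gene, rose by 0.78 and CDK6, a G1 kinase, by 0.55, whereas the cyclin gene CCND2 fell by 0.58. CCND2 alone of these lost its call without any of the 5 arrays other than EVI1 ATRA number 1 (adjusted p up to 0.113). CDKN1A and CDK6 were also higher under DMSO, by 1.3 and 0.57 (adjusted p = 0.02 and 0.0123).

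Of regulators of cell death, 1 of 9 tested inhibitors was higher (11.1%) and 0 lower. Of 24 tested promoters of death, 2 were higher (8.3%) and 1 was lower (4.2%), against 3.28% and 2.33% of all genes. BCL2A1, an inhibitor of the BCL2 family, read 9.19, 9.85 and 9.96 in vector ATRA arrays and 10.82, 11.82 and 12.62 in EVI1 ATRA arrays (2.09 ± 0.41, adjusted p = 0.0141). The groups did not overlap, but the call was lost without vector ATRA number 1 or EVI1 ATRA number 2 or 3 (adjusted p up to 0.0569). TNFRSF10B, a receptor of the death ligand TRAIL, rose by 0.60, the pore former BAK1 rose by 0.43, and CASP1, the caspase of inflammasomes, fell by 0.72. CASP1 kept its call without any single array, TNFRSF10B lost it without 2 arrays and BAK1 without 4 (adjusted p up to 0.0623 and 0.114). With the block the inhibitors came to 5 higher and 1 lower and the promoters of death to 12 higher and 3 lower.

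Class II genes present peptides to helper T cells. Of 12 tested, 4 were higher and 0 lower, with a median of 0.63, and 8 were higher with the replicate block. HLA-DRA read 8.63, 7.72 and 8.98 in vector ATRA arrays and 10.05, 10.18 and 10.52 in EVI1 ATRA arrays (1.81 ± 0.42, adjusted p = 0.0278). CD74, the invariant chain, rose by 1.65, although another of its probe sets had a difference of -0.10. The peptide loading genes HLA-DMA and HLA-DMB rose by 1.62 and 0.64. HLA-DMB kept its call without any single array. HLA-DRA, CD74 and HLA-DMA lost it without vector ATRA number 1 or 2 or EVI1 ATRA number 2 or 3. CD74 and HLA-DMA lost it also without vector ATRA number 3. The adjusted p of HLA-DRA, CD74 and HLA-DMA in these fits without the block ran up to 0.116, 0.159 and 0.109. With the block and all arrays it was 0.00055, 0.000118 and 0.00052. The median of the list under DMSO was 0.72. Without EVI1 ATRA number 1, 5 members were called, and without 1 of the other 5 arrays 1 or 2. In class I presentation, 2 of 19 tested genes were higher, TAP1 by 0.57 and NLRC5 by 0.55, and 7 were with the block. Each lost its call without 3 of the 6 arrays (adjusted p up to 0.0634 and 0.0738), and the count ran from 0 to 4 without 1 array.

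Of 38 tested interferon-stimulated genes, 4 were higher and 0 lower, with a median of 0.46, and with the block 22 were higher and 1 lower. XAF1, a pro-apoptotic antagonist of XIAP, read 7.0, 6.71 and 7.34 in vector ATRA arrays and 7.88, 8.15 and 8.67 in EVI1 ATRA arrays (1.22 ± 0.21, adjusted p = 0.00796). IRF9, the DNA-binding subunit of the factor ISGF3, rose by 1.12, IFI35 by 0.68 and HERC6 by 0.46. Of these, XAF1 kept its call without any single array. Without EVI1 ATRA number 1, 16 of the list were higher, and without 1 of the other 5 arrays 1 or 2.

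Among immunoglobulin-like, Fc and lectin receptors of leukocytes, 3 of 28 tested genes were higher and 0 lower, with a median of 0.44. With the block 14 were higher and 4 lower. Beside CD300A, SIRPA, an inhibitory receptor for CD47, rose by 0.67 and CD300LF, another CD300 receptor, by 0.47. LILRA5, an activating receptor, had a difference of 2.77 ± 0.87 (adjusted p = 0.0894, and 0.0277 with the block). Its EVI1 arrays read 9.79, 10.75 and 11.54 and its vector arrays 7.91, 8.82 and 7.04. The differences of its 4 probe sets ran from 0.11 to 2.91. In a fit of every probe set without the block, 1 of the others was called higher. CLEC5A, an activating lectin, had a difference of -1.06 ± 0.29 (adjusted p = 0.0557, and 0.00238 with the block). SIRPA kept its call without any single array, and CD300LF lost it without each of the 6 in turn (adjusted p up to 0.165). Another probe set of SIRPA differed by -0.15. Without EVI1 ATRA number 1, 10 of the list were higher, and without 1 of the other 5 arrays 1 was. In addition, 3 were lower without EVI1 ATRA number 2.

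**Figure D3:**
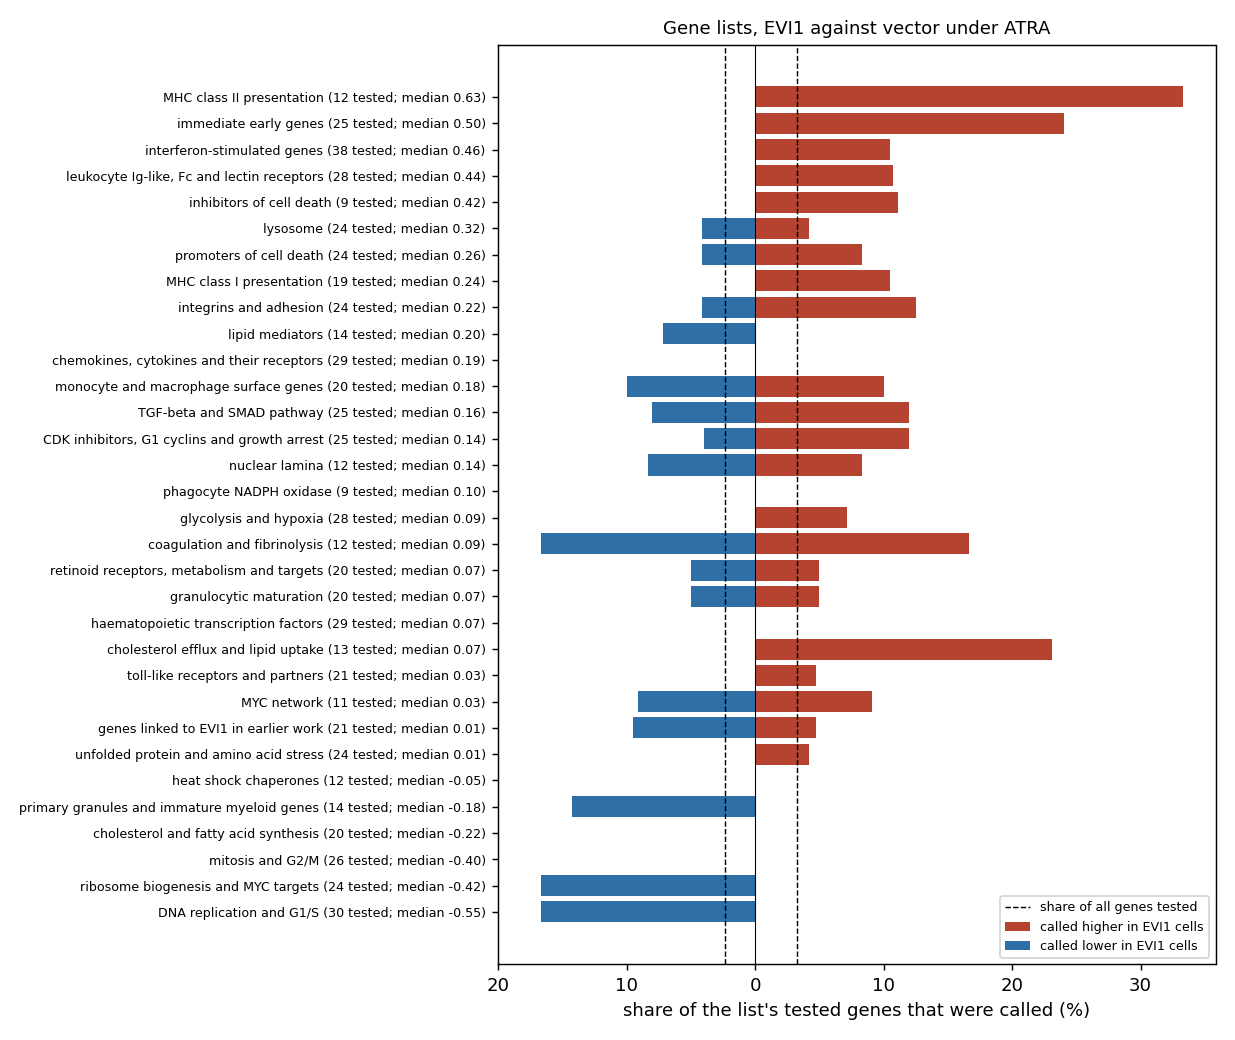
Share of the tested genes of each list (%) that were called higher (red, to the right) or lower (blue, to the left) in EVI1 cells under ATRA, with lists ordered by their median log2 difference. Dashed lines mark the shares among all 14080 genes, 3.28% higher and 2.33% lower. Class II presentation (4 of 12) and immediate early genes (6 of 25) have the largest shares to the right, and DNA replication (5 of 30) and ribosome biogenesis (4 of 24) lie at the bottom with lower calls only.

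Genes of myeloid maturation were called in both directions. Among all genes 3.28% were higher and 2.33% lower, and with the block 13% and 12.3%. Of 20 tested monocyte and macrophage surface genes, 2 were higher (CD300A and CD300LF) and 2 lower (10.0% each), and with the block 7 and 3 were. CCR2, the receptor of CCL2, read 9.12, 9.29 and 8.97 in vector ATRA arrays and 7.43, 7.35 and 7.60 in EVI1 ATRA arrays (-1.67 ± 0.26, adjusted p = 0.00517), and the tetraspanin CD9 fell by 1.13. Of 20 genes of granulocytic maturation, 1 was higher and 1 lower (5.0% each). The formyl peptide receptor gene FPR2 rose by 1.07 and the complement receptor gene C3AR1 fell by 1.17, and with the block 4 were higher and 1 lower. CCR2 kept its call without any single array, and CD9 lost it without vector ATRA number 3 (adjusted p = 0.0582). FPR2 lost it without 4 of the 6 arrays and C3AR1 without 3 (up to 0.17 and 0.106). S100A9, a calcium-binding protein of mature myeloid cells, read 8.17, 9.09 and 8.51 and then 10.47, 11.53 and 12.71. These arrays did not overlap, and the difference of 2.98 ± 0.83 had an adjusted p of 0.0597, and of 0.00775 with the block. Of 9 genes of the phagocyte NADPH oxidase 0 were called with or without the block. The largest differences were those of NCF1 (1.18 ± 0.67) and CYBB (-0.42 ± 0.54). NCF1 read 11.56, 11.89 and 11.71 in vector ATRA arrays and 12.79, 12.83 and 13.08 in EVI1 ATRA arrays, with no overlap. Its SE is shared with the DMSO groups, where the standard deviation was 0.83 in vector and 1.78 in EVI1 arrays.

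Surface markers often used for ATRA-driven maturation did not pass the test, with or without the block. CD38 read 10.67, 10.28 and 10.40 in vector ATRA arrays and 10.69, 10.57 and 10.80 in EVI1 ATRA arrays, a difference of 0.24 ± 0.72 (adjusted p = 0.907). ITGAM, the integrin CD11b, had a difference of 0.40 ± 0.57 (adjusted p = 0.768), ITGAX, CD11c, one of 0.46 ± 0.26 (0.351) and CD36, a scavenger receptor, one of 0.54 ± 0.72 (0.742). With the block the adjusted p was 0.798 for CD38, 0.36 for ITGAM, 0.053 for ITGAX and 0.447 for CD36. The same-number differences of ITGAX were 0.43, 0.28 and 0.67. Another probe set of ITGAM differed by -0.15. The arrays of the groups overlapped in all of these genes. The SE of CD38 is shared with the DMSO groups, where the standard deviation was 1.33 in vector and 1.65 in EVI1 arrays. CD14 read between 4.05 and 4.76 on the 6 arrays and was not tested.

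In the list of primary granules and immature myeloid genes, 2 of 14 tested genes were lower and 0 higher, and with the block 3 were lower. MS4A3, a marker of granulocyte and monocyte progenitors, read 10.80, 10.55 and 10.10 in vector ATRA arrays and 8.96, 8.91 and 7.42 in EVI1 ATRA arrays (-2.05 ± 0.48, adjusted p = 0.0307). CTSG, the granule protease cathepsin G, fell by 0.89 ± 0.20 (adjusted p = 0.0222). Their arrays did not overlap. Both genes lost their call without any of the 5 arrays other than EVI1 ATRA number 1 (adjusted p up to 0.122 and 0.0845). With the block and all arrays, the adjusted p was 0.00081 for MS4A3 and 0.0019 for CTSG. Of 21 tested genes tied to EVI1 by other studies, EMP1 was higher (4.8%, against 3.28% of all genes). MS4A3 and the corepressor gene CTBP1 (-0.38 ± 0.09) were lower (9.5%, against 2.33%). CTBP1 lost its call without any of the 5 arrays other than EVI1 ATRA number 1 (adjusted p up to 0.0944). The median of that list was 0.01, and with the block 4 were higher and 4 lower. The list was compiled with earlier results of these data known, so its direction is not independent evidence.

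Of 20 tested genes of retinoid receptors, metabolism and targets, 1 was higher (5.0%, against 3.28% of all genes) and 1 lower (5.0%, against 2.33%), with a median of 0.07. With the block 4 were higher and 3 lower, where 13% and 12.3% of all genes were. RARA, the retinoic acid receptor alpha, read 7.50, 7.44 and 7.15 in vector ATRA arrays and 7.97, 7.94 and 8.34 in EVI1 ATRA arrays (0.72 ± 0.16, adjusted p = 0.0221), and lost its call without vector ATRA number 2 or 3 or EVI1 ATRA number 3 (up to 0.101). ALDH1A1, which makes retinoic acid from retinaldehyde, fell by 0.78 ± 0.13 (adjusted p = 0.00774). Among direct targets, RARB had a difference of 1.16 ± 0.34 (adjusted p = 0.0699, and 0.00182 with the block) and TGM2, a transglutaminase, one of 1.89 ± 0.74 (0.163, and 0.00826 with the block). CYP26A1, which degrades retinoic acid, read 5.30, 5.45 and 5.54 and then 5.86, 5.98 and 8.53, so that its difference of 1.36 ± 0.52 (0.152, and 0.0586 with the block) rested mainly on EVI1 number 3. DHRS3, a retinaldehyde reductase, had one of 0.66 ± 1.00 (0.78). It read 10.45, 10.43 and 10.46 in vector ATRA arrays and 10.93, 11.19 and 11.21 in EVI1 ATRA arrays, with no overlap. Its SE is shared with the DMSO groups, where the standard deviation was 1.75 in vector and 2.41 in EVI1 arrays.

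Of 29 tested haematopoietic transcription factors, 0 were called. With the block 4 were higher and 3 lower, which is near the shares of all genes (13% and 12.3%). CEBPB, a factor of macrophage activation, had a difference of 0.86 ± 0.36 (adjusted p = 0.198, and 0.0104 with the block), CEBPE, a factor of late granulocytic maturation, one of 0.72 ± 0.25 (0.115, and 0.033 with the block), SPI1, the master regulator PU.1, one of 0.32 ± 0.23 (0.486), GATA2, a factor of stem and progenitor cells, one of -0.11 ± 0.10 (0.634) and CEBPA, which starts granulocytic differentiation, one of -0.01 ± 0.13 (0.974). RUNX1 was not analysed here.

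In the TGF-beta and SMAD pathway, 3 of 25 tested genes were higher and 2 were lower, and with the block 8 and 4 were. The receptor gene ACVR1B rose by 0.77, the coreceptor gene ENG by 0.71 and SMURF1, a ubiquitin ligase for SMAD proteins, by 0.89. Other probe sets of ACVR1B and ENG had differences of -0.18 and -0.12. Beside LTBP1, NOG, which encodes the BMP antagonist noggin, fell by 0.69. LTBP1 kept its call without any single array. SMURF1 lost it without EVI1 ATRA number 3 (adjusted p = 0.0565), and ACVR1B, ENG and NOG without at least 4 of the 6 arrays (up to 0.0855, 0.0769 and 0.136). Of 24 integrin and adhesion genes, 3 were higher and 1 lower, and with the block 5 and 2 were. PLXNC1, a semaphorin receptor, rose by 1.56, PECAM1 by 1.00 and ICAM1, a ligand of leukocyte integrins, by 0.99, and ICAM3 fell by 1.00. PLXNC1 and ICAM3 kept their call without any single array, and PECAM1 and ICAM1 lost it without at least 4 of the 6 (adjusted p up to 0.0798 and 0.118). Another probe set of PLXNC1 differed by -0.34.

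Of 12 coagulation and fibrinolysis genes, 2 were higher and 2 lower. F3, tissue factor, which starts clotting, read 6.10, 5.83 and 5.79 in vector ATRA arrays and 6.45, 6.50 and 6.63 in EVI1 ATRA arrays (0.62 ± 0.12, adjusted p = 0.0145). PLAUR, the urokinase receptor, rose by 1.06 ± 0.18 (adjusted p = 0.00774). THBD and F13A1, the A subunit of clotting factor XIII, were lower, and F13A1 fell by 1.39 ± 0.34 (adjusted p = 0.0347). F3 lost its call without vector ATRA number 2 or 3 or EVI1 ATRA number 3 (up to 0.0677), F13A1 without any of the 5 arrays other than EVI1 ATRA number 1 (up to 0.141). THBD and PLAUR kept theirs without any single array.

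Of 29 chemokines, cytokines and their receptors 0 were called, whereas 11 were higher and 2 lower with the block. The largest differences were those of ACKR3, an atypical chemokine receptor (2.17 ± 0.72, adjusted p = 0.106, and 0.0151 with the block), and CCL2, a chemokine for monocytes (1.94 ± 0.64, adjusted p = 0.103, and 0.018 with the block). Beyond the lists, the largest differences called with the block alone included GDF15, a stress-induced TGF-beta family member, at 3.85 ± 1.13 (adjusted p = 0.0717, and 0.000834 with the block), and CD52, a small surface glycoprotein, at 3.32 ± 1.22 (0.137, and 0.00105 with the block). GDF15 read 6.39, 7.51 and 8.42 in vector ATRA arrays and 9.81, 10.79 and 13.26 in EVI1 ATRA arrays. CD52 read 5.46, 6.79 and 8.40 and then 8.27, 9.81 and 12.52, with 1 EVI1 array below the highest vector array. In both genes the arrays numbered 3 were the highest of their group.

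Set beside DMSO, the differences ran mostly the same way. Under DMSO 171 genes (1.21%) were called between EVI1 and vector cells, 75 higher (0.533%) and 96 lower (0.682%). With the block these were 1013 genes (7.19%), 592 higher (4.20%) and 421 lower (2.99%). Called in the same direction under both agents were 157 genes, which are 19.9% of the genes called under ATRA and 91.8% of those called under DMSO, and 0 were called in opposite directions. The sets of arrays are different, but each cell population is the same under both agents. Of the genes called higher under ATRA, 456 of 462 had a positive difference under DMSO, and of those called lower, 318 of 328 a negative one. Their median difference was 0.69 under ATRA and 0.40 under DMSO for the higher genes, and -0.67 and -0.42 for the lower ones. These genes were chosen for their difference under ATRA, so these medians are a description with no test.

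**Figure D4:**
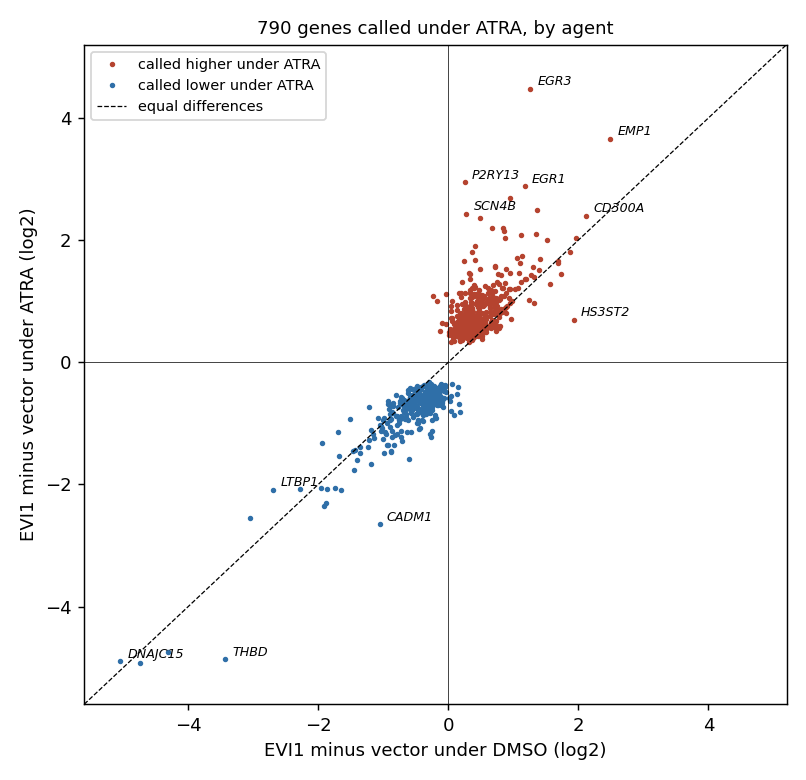
EVI1 minus vector difference (log2) under DMSO on the horizontal axis and under ATRA on the vertical axis for the 790 genes called under ATRA, 462 higher (red) and 328 lower (blue). The dashed line marks equal differences. DNAJC15 lies near the line, EGR3, P2RY13, EGR1 and SCN4B lie far above it, THBD and CADM1 below it, and HS3ST2 to its right. The DMSO difference of THBD is limited by the background.

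The difference between these differences was tested as an interaction, the EVI1 effect under ATRA minus that under DMSO, and 0 genes were called by limma with or without the replicate block. At an unadjusted p under 0.05 there were 362 genes, fewer than the 704 that 5% of the genes make, and 1846 with the block, and the smallest adjusted p was 0.998 and 0.346. The genes with the smallest p are therefore given as values. CADM1 had an interaction of -1.60 ± 0.30 (unadjusted p = 0.000202), with a difference of -2.65 under ATRA and -1.06 under DMSO. FAM222A had one of 1.5 ± 0.31 (1.90 and 0.40), CYSRT1 of 1.14 ± 0.25 (1.11 and -0.03), PFKFB3, a regulator of glycolysis, of 0.71 ± 0.17 (0.85 and 0.14), CEMIP2 of 0.84 ± 0.22 (1.18 and 0.34), and MTERF1, a mitochondrial factor, of 0.58 ± 0.14 (-0.93 and -1.51). On the negative side, beside CADM1, DDC had an interaction of -1.0 ± 0.20 (-0.82 and 0.18). That of HS3ST2, a heparan sulphate sulphotransferase, was -1.24 ± 0.24 (0.69 and 1.93), that of DNAAF3 -0.90 ± 0.21 (-1.18 and -0.28) and that of GPR27 -0.66 ± 0.17 (-0.52 and 0.14). Without EVI1 ATRA number 1, DDC alone was called, at -1.19 ± 0.13 (adjusted p = 0.0227). The other probe set of DDC had a difference of 0.23 under ATRA.

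Called genes also lay next to each other on some chromosomes. A run was counted where at least 3 neighbouring tested genes were called in the same direction, with at most 1 uncalled tested gene between them. There were 23 runs with 106 genes, 47 of the higher genes (10.2%) in 12 runs and 59 of the lower genes (18.0%) in 11 runs. All 106 had the same sign under DMSO, and 51 were called there too. On chromosome 7, 71 of 640 tested genes were higher (11.1%, against 3.28% of all genes), and 37 of them formed 9 runs with a median difference of 0.82 under ATRA and 0.69 under DMSO. They include SAMD9, an antiviral and growth-restraining factor, which rose by 1.53, NAMPT, the rate-limiting enzyme of NAD salvage, by 1.03, and CDK6 and DNAJB9. On the same chromosome 7 genes formed 2 lower runs, with CLDN12 at -1.48 and MTERF1 and CDK14 beside it.

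On chromosome 8, 39 of 467 tested genes were lower (8.4%, against 2.33% of all genes), and 19 of them formed 4 runs with medians of -0.82 under ATRA and -0.85 under DMSO. The run around ASH2L and STAR held 10 of 12 neighbouring tested genes, among them EIF4EBP1, a translation repressor (-1.49), DDHD2, a phospholipase (-1.25), and LSM1, a factor of messenger RNA decay (-0.94). On chromosome 20, 44 of 430 were lower (10.2%), with 23 genes in 3 runs and medians of -0.73 and -0.58. GINS1 of the replication list lies in such a run, and so does FERMT1, kindlin-1 (-1.03). On chromosome 5, 20 of 601 were lower (3.3%), nearer the share of all genes, and 7 genes formed 1 lower run with medians of -0.77 and -0.64. Larger shares were lower on chromosome 21 (12 of 157, 7.6%) and chromosome 4 (24 of 447, 5.4%). On chromosome X, 26 of 419 were higher (6.2%, against 3.28% of all genes). The class II genes HLA-DMA and HLA-DMB formed a run with TAP1 on chromosome 6.

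**Figure D5:**
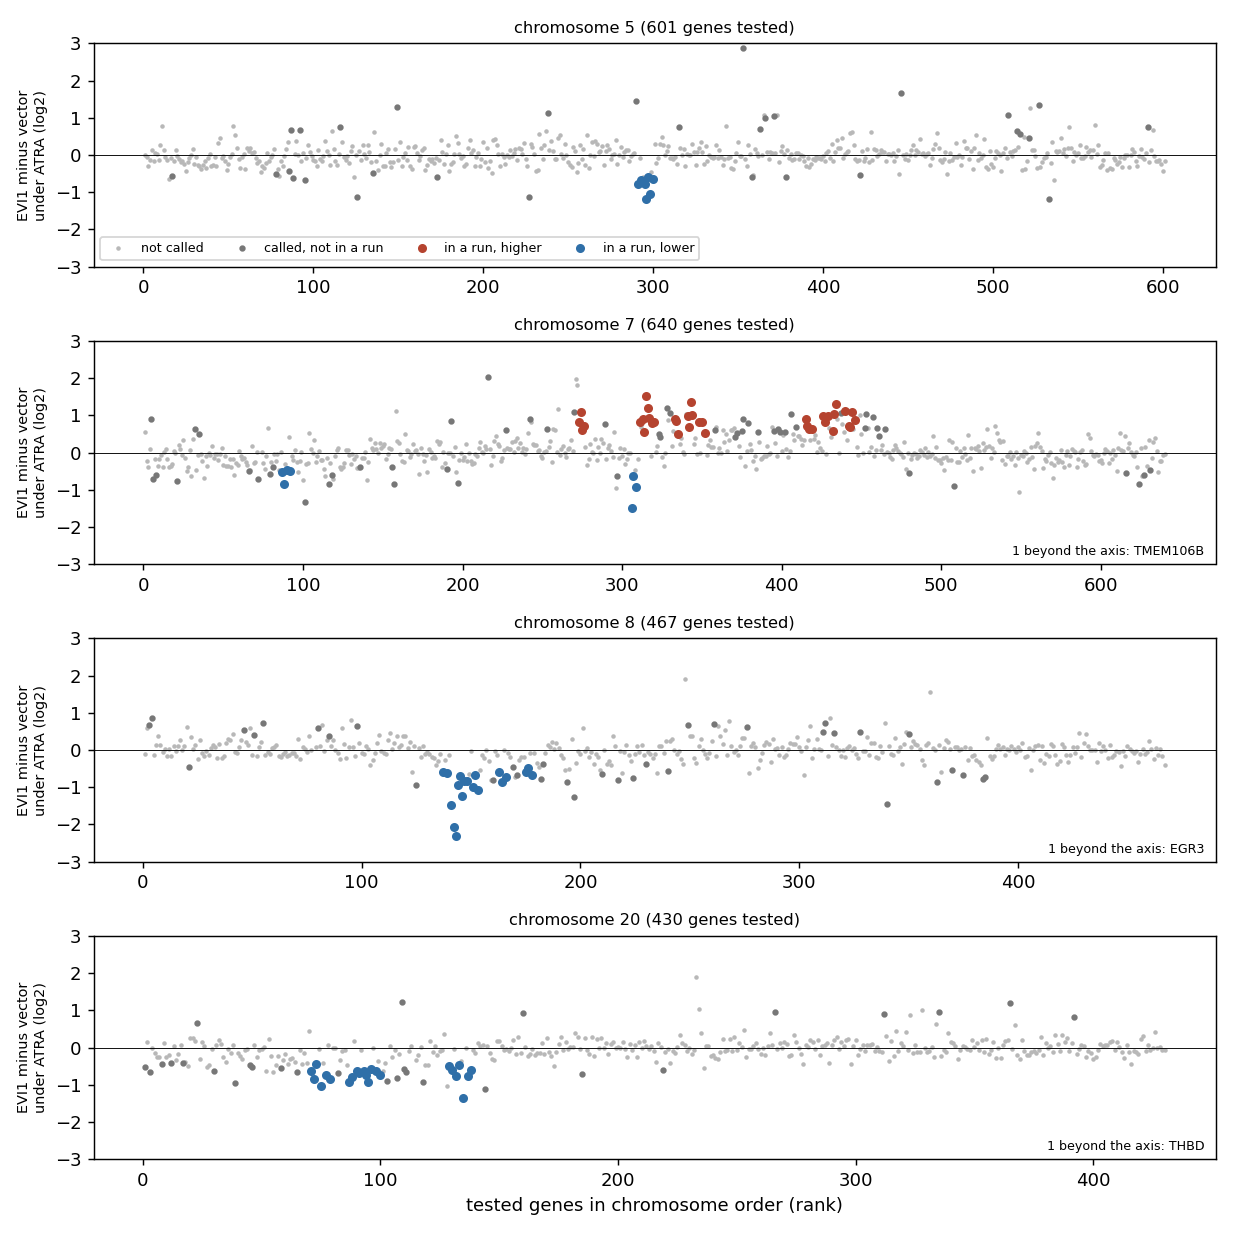
EVI1 minus vector difference under ATRA (log2) of the tested genes of chromosomes 5, 7, 8 and 20, in chromosome order by rank. Red and blue points are genes in runs called higher or lower, dark grey points other called genes and light grey points genes not called; genes beyond the axis are named in the panels. Chromosome 7 shows stretches of red points at about the same height, and chromosomes 8 and 20 each a stretch of blue ones.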

How the data were processed

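Total RNA (250 ng) was measured on Affymetrix 3′ arrays, 12 in all, per the labels' protocols. The authors deposited log2 values made with RMA (background correction, normalization between arrays and a summary per probe set) in Expression Console 1.3 (Affymetrix), as the submitters' processing notes say. Precision is limited by the number of arrays. Of 54675 probe sets, the platform annotation gave 41097 exactly 1 symbol, 1801 several and left 11777 unlisted; 41043 matched RefSeq genes of GRCh38.p14, and 0 symbols differed. The probe set with the highest mean stood for each of 19775 genes, and 14080 with a log2 level of at least 5 on at least 3 arrays were tested, leaving 5695 out.

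Group means over all 12 arrays were fitted with limma 3.58.1 in R 4.3.3 (lmFit, eBayes), without a replicate block, and p-values were adjusted (Benjamini-Hochberg) over 14080 genes. Differences carry the SE of this fit, so a gene that varied under DMSO has a wide SE under ATRA too. RMA sets the arrays to 1 distribution, and folds near background are understated. The script was tested on simulated data. Arrays with the same number deviated together from their group means over the tested genes (r of 0.70, 0.56 and 0.52 between vector ATRA and EVI1 ATRA, and 0.41 to 0.70 over all pairs of groups), so the numbers pair the samples and the fit with the block is given beside the calls and list counts it changes.

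Genes were named by a rule: the 10 largest rises and falls among called genes with no overlap of arrays, the 5 smallest adjusted p each way, up to 6 called members of each list (or the 2 largest differences), a preset group of myeloid, retinoid and EVI1-linked genes, the 5 smallest interaction p each way, the 5 largest differences each way called with the block alone, and genes in runs of neighbours. The comparison, the lists and this rule were chosen with earlier results of these data known. Lists carry counts and medians with no test of the list. The CArG box was searched after the values were seen. Alternatives were the block, other signal limits, every probe set, another quantile normalization, another variance model, the 6 arrays alone, and leaving out arrays. GAPDH 3′ minus 5′ differences were 0.15 to 0.32 and those of ACTB 0.34 to 0.70 on the 12 arrays.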

Additional observations from a re-analysis of the deposited data

Results flagged for a closer look

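In 4 genes the same-number differences between EVI1 and vector cells ran 1 way at all 3 numbers under ATRA and the opposite way at all 3 under DMSO. None of the 4 was called in the interaction over all 12 arrays, where each had an adjusted p of 0.998. CYP26A1, which degrades retinoic acid, had a difference of 1.36 ± 0.52 under ATRA and -0.17 under DMSO, and it was not called under ATRA. DDC, which decarboxylates DOPA, had -0.82 ± 0.14 and 0.18, the orphan receptor gene GPR27 had -0.52 ± 0.12 and 0.14, and the noggin gene NOG had -0.69 ± 0.17 and 0.16.

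Probe sets to which the annotation gave no symbol or several symbols were left out of the gene comparison. In a fit of all 31958 probe sets above the signal limit, 5729 of them were tested, and 91 were called between EVI1 and vector cells under ATRA, 39 higher and 52 lower, and 693 with the replicate block.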

How the results depend on the processing

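With the replicate number as a block, 3559 genes were called under ATRA and 1013 under DMSO, and 0 in the interaction. The block thus changed calls between EVI1 and vector cells in number, whereas it cannot alter the differences or their direction. Fitted on the 6 arrays compared alone, the counts were 269 under ATRA and 92 under DMSO, and with the replicate block added 2647 and 734. Leaving out 1 array at a time, without the block, gave 263 to 1962 genes under ATRA, 77 to 130 under DMSO and 0 to 1 in the interaction. Fits that leave a group with 2 arrays assume that they vary like the other groups. Leaving out all 4 arrays of a number, chosen after seeing the data, gave 1322 genes without number 1, 15 without number 2 and 71 without number 3, and with the block 3046, 905 and 1020. The other alternatives stayed within 1.5 times of the counts: 706 genes under ATRA with no signal limit, 854 at a log2 limit of 6, 1025 with every probe set as its own row, 885 after another quantile normalization, of which 51.1% were higher against 58.5%, and 865 with an intensity trend and robust variance. The causes were not tested. Levels near the lower quartile of an array limit the folds of EGR3, EMP1, LINC01088, TMEM106B, CLGN and KITLG, and that of THBD under DMSO.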

Other observations

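Of 28 tested genes of glycolysis and hypoxia, 2 were higher (7.1%, against 3.28% of all genes) and 0 lower in EVI1 cells under ATRA. With the replicate block 7 were higher and 2 lower, where 13% and 12.3% of all genes were. SLC2A1, the glucose transporter GLUT1, read 8.32, 8.16 and 8.07 in vector ATRA arrays and 8.98, 9.37 and 8.89 in EVI1 ATRA arrays (0.90 ± 0.15, adjusted p = 0.00786), and PFKFB3, which makes the activator of phosphofructokinase, rose by 0.85 ± 0.12 (adjusted p = 0.00297). Of 20 tested genes of cholesterol and fatty acid synthesis, 19 had a negative difference, with a median of -0.22, and 0 were called. With the replicate block 3 were lower, among them LSS, lanosterol synthase (-0.66 ± 0.33, adjusted p = 0.284, and 0.00629 with the block). In cholesterol efflux and lipid uptake, 3 of 13 tested genes were higher, all nuclear receptors: NR1H3, the oxysterol receptor LXR alpha, by 1.13, PPARD by 0.67 and PPARG by 0.46. With the block 4 were higher and 3 lower. PPARD kept its call without any single array, and NR1H3 and PPARG did not (adjusted p up to 0.15 and 0.069).

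Among all genes 3.28% were higher and 2.33% lower, and with the block 13% and 12.3%, and several lists below are near these shares. In the unfolded protein and amino acid stress list, 1 of 24 tested genes was higher (4.2%). It was the endoplasmic reticulum co-chaperone gene DNAJB9 (0.89 ± 0.15), which lies in a run on chromosome 7. With the block 4 were higher and 5 lower. Of 12 heat shock chaperones 0 were called, and with the block 2 were higher and 2 lower, among them BAG3, a co-chaperone of HSP70 proteins (0.55 ± 0.18, adjusted p = 0.1005, and 0.0245 with the block), and HSPA9, a mitochondrial chaperone (-0.30 ± 0.16, adjusted p = 0.306, and 0.0185 with the block). Of 24 lysosomal genes, 1 was higher and 1 lower (4.2% each). NPC1, a cholesterol exporter of the lysosome, rose by 0.75 and CTSC, cathepsin C, fell by 0.36, and with the block 11 were higher and 1 lower. Of 21 toll-like receptors and partners, the kinase gene IRAK2 alone was called (4.8%). It was higher by 1.45 ± 0.28, and lost its call without vector ATRA number 1 or 3 (adjusted p up to 0.0556). With the block 4 of the list were higher and 2 lower. Of 14 lipid mediator genes, PTGER4, a prostaglandin E2 receptor, alone was called (7.1%) and fell by 0.61, and with the block 4 were higher and 3 lower. Of 12 genes of the nuclear lamina, 1 was higher and 1 lower (8.3% each). LMNB1, lamin B1, rose by 1.45 ± 0.29 and SUN1, which links the lamina to the cytoskeleton, fell by 0.60 ± 0.13. With the block 2 were higher and 3 lower. NPC1, CTSC, PTGER4, LMNB1 and SUN1 each lost their call without at least 2 of the 6 arrays (adjusted p up to 0.0802, 0.107, 0.155, 0.0597 and 0.0919).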
